A study of Homo sapiens with 9 samples.

Results

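The 9 genes of the GDNF family signalling system were followed through DRIP-seq peak lists of human SH-SY5Y neuroblastoma cells. They are RET, its co-receptors GFRA1, GFRA2, GFRA3 and GFRA4, and the ligands GDNF, NRTN, ARTN and PSPN, 9 of the 19970 protein-coding genes examined. Each gene was taken as its RefSeq GRCh38 span plus 1 kb on either side, called its window here. The set was chosen by GFRA3, which was selected on its covered length in an earlier fit of these libraries, where it was higher in the knockdown. Its values in that contrast are therefore a description without a test. The other members were added as its family. SH-SY5Y is an established line with an adrenergic, neuron-like character. DRIP-seq digests nucleic acids, pulls down DNA:RNA hybrids (R-loops) with the S9.6 antibody and sequences the recovered DNA.

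The knockdown libraries (shTDP43) came from cells with a stably integrated hairpin against TDP-43, the nucleic acid-binding protein encoded by TARDBP. The control libraries (shNC) came from cells with a negative control hairpin. Per the labels' protocols, hairpins were delivered by lentivirus, and transduced cells were selected in 2 µg/mL puromycin for 2 weeks and kept in 1 µg/mL. For each genotype there were 3 untreated libraries, here shTDP43 1, 2 and 3 and shNC 1, 2 and 3. A further library per genotype was made from nucleic acid incubated for 6 h with RNase H, which degrades the RNA strand of hybrids. For treated and untreated libraries alike the amount of nucleic acid was 6 µg. Nothing in the labels tells if replicates are separate transductions or cultures, so p-values measure only the spread between these libraries, which may be technical.

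GDNF family ligands are secreted survival and guidance factors for neurons. Each binds a preferred co-receptor anchored to the cell surface by a lipid tail: GDNF binds GFRA1, neurturin (NRTN) binds GFRA2, artemin (ARTN) binds GFRA3 and persephin (PSPN) binds GFRA4. The ligand and co-receptor together engage RET, a receptor tyrosine kinase that signals through the RAS-ERK and PI3K-AKT pathways. RET is known for its part in the development of the sympathetic and enteric nervous systems and in neuroblastoma differentiation.

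The sequences just before the annotated starts of 3 members show the DNA that the hybrids would or would not include. RET stands for the most widely covered receptor, GDNF for a ligand with no peak, and GFRA3 for the gene with the largest log2 difference between genotypes among the members. Each is 250 bases of the RefSeq GRCh38.p14 promoter table, 5′ to 3′ on the coding strand, with CpG dinucleotides in capitals. RET is on the plus strand at chr10:43076819-43077068, GDNF on the minus strand at chr5:37840042-37840291 and GFRA3 on the minus strand at chr5:138274622-138274871.
RET: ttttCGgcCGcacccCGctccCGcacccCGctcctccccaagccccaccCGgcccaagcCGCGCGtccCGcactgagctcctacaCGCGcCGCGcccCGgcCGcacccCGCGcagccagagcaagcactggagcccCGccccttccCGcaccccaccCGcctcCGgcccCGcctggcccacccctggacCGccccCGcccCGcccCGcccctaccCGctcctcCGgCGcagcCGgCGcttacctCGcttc
GDNF: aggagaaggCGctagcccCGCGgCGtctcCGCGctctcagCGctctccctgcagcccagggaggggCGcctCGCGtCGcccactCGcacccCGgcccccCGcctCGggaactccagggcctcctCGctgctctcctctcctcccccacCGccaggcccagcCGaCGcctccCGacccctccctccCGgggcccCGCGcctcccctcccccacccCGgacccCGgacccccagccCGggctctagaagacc
GFRA3: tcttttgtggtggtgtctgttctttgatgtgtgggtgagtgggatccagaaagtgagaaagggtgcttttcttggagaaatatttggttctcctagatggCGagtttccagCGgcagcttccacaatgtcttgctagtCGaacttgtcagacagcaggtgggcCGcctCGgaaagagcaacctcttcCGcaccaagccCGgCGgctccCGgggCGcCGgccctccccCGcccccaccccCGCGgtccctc
These stretches held 33 CpG in RET, 26 in GDNF and 14 in GFRA3. In the full windows of 300 bases, from 250 before to 50 after the start, RET had 41 CpG and 78.7% G or C, GDNF had 32 CpG and 77.0%, and GFRA3 had 22 CpG and 61.3%. Over 15811 such windows of coding genes the medians were 22 CpG and 62.7%. The 5994 windows that met peaks in all 6 untreated libraries had medians of 28 CpG and 67.0%, and windows with no peak had 8 CpG and 55.3%. GDNF therefore had a CpG-rich start without a peak, while the start of RET lay under peaks in 6 of 6 untreated libraries. On the coding strand the start of RET held more C than G. Its GC skew, which is G minus C over their sum, was -0.37, and 0.727% of windows had a lower one. The value of GDNF was -0.33. The other starts with peaks in all 6 untreated libraries were those of ARTN, with 18 CpG, and PSPN, with 9 CpG. NRTN had 38 CpG and a peak in 4 libraries, and GFRA3 a peak in 2. GFRA1, with 9 CpG, and GFRA4, with 10 CpG, had none. GFRA2 has no entry in the promoter table.

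The untreated lists held between 57277 and 70120 peaks in shTDP43 and between 69542 and 73456 in shNC, and the RNase H lists 8916 peaks in shTDP43 and 15580 in shNC. The background pileup, solved from each list's own folds and p-values and used as a measure of relative depth, was 1.05 to 1.94 fragments in untreated shTDP43 and 1.62 to 2.01 in untreated shNC. The lowest of these depths was that of shTDP43 1, with a total covered length of 91.6 Mb, where the remaining untreated lists reached 125 to 142 Mb. TARDBP itself averaged 8.97 kb of coverage in shTDP43 and 12.4 kb in shNC, but hybrid coverage is not a level of its transcript and does not check the knockdown. Of the adrenergic neuroblast genes listed as markers, 12 of 13 had peaks in every untreated library, with TH at 0, and their summed coverage was 166.8 to 180.5 kb in shTDP43 and 172.3 to 180.2 kb in shNC. Of the mesenchymal genes, 3 of 8 had peaks in every untreated library and PRRX1, SNAI2 and CD44 were at 0, with sums of 29.0 to 37.8 kb in shTDP43 and 36.6 to 44.9 kb in shNC. Among genes of unrelated cell types, ALB, APOA2, PTPRC, CD3E and KRT14 were at 0 and HBB reached 0.457 kb in an shNC library. Limma called 0 of 12 tested adrenergic and 0 of 5 tested mesenchymal genes between genotypes, and 1 adrenergic and 0 mesenchymal genes had an unadjusted p under 0.05. Their part in the results below was not tested. These are bulk libraries, in which fewer cells with a hybrid and fewer hybrids per cell cannot be told apart.

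Of the 9 members, 6 had peaks in all 6 untreated libraries and 3 had no peak in any of the 8 lists. Across all coding genes, 5869 (29.4%) had no peak in an untreated library. As a share of the window's length, averaged over the 6 untreated libraries, coverage ran from PSPN (100%) through RET (94.0%), ARTN (91.6%), NRTN (64.9%) and GFRA3 (33.8%) to GFRA2 (11.2%). RET, by this measure, was covered more fully than 94.3% of coding genes, GFRA3 more than 74.0% and GFRA2 more than 58.6%. Over the 6 untreated libraries RET spanned 86.4% to 98.1%, ARTN 77.6% to 96.5%, NRTN 50.8% to 73.3%, GFRA3 8.79% to 57.5% and GFRA2 5.15% to 18.0%. RET and ARTN overlapped within shTDP43 (RET 86.4% to 93.0%, ARTN 77.6% to 96.5%) but not within shNC (RET 96.0% to 98.1%, ARTN 93.9% in each library). PSPN and RET did not overlap, nor did ARTN and NRTN. The position of GFRA3 depends on the genotype. NRTN was above GFRA3 in each of the 6 libraries. Within shTDP43, GFRA3 (40.3% to 57.5%) and GFRA2 (5.15% to 7.21%) did not overlap, while within shNC GFRA3 (8.79% to 25.5%) overlapped GFRA2 (13.8% to 18.0%).

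**Figure D1:**
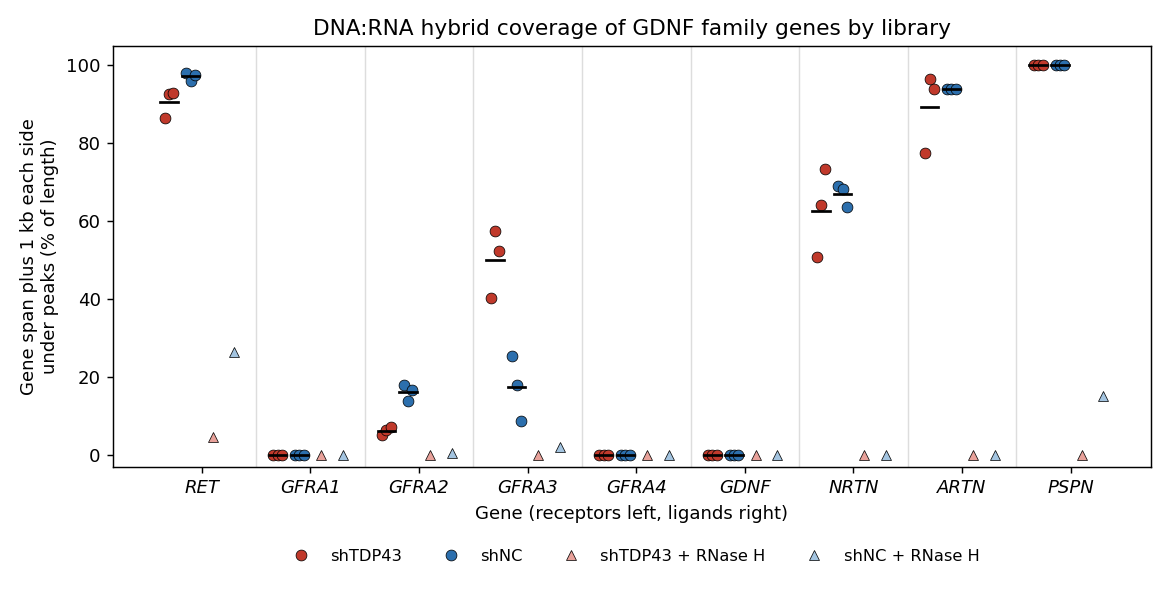
Each point is the share of a gene's window (span plus 1 kb on each side, in % of its length) under peaks in 1 library, with shTDP43 left of shNC, circles for untreated and triangles for RNase H libraries, and bars for the mean of 3 untreated libraries. GFRA3 is higher in shTDP43 (40.3% to 57.5%) than in shNC (8.79% to 25.5%), GFRA2 is lower in shTDP43 (5.15% to 7.21%) than in shNC (13.8% to 18.0%), and GFRA1, GFRA4 and GDNF are at 0 throughout.

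The ligand and co-receptor partners were unevenly covered. ARTN and its co-receptor GFRA3 both carried peaks, as did NRTN and its co-receptor GFRA2. GDNF and GFRA1 were both at 0 in all 8 libraries, and PSPN was covered from end to end while GFRA4 was at 0. The nearest untreated peak lay 69.3 to 126.9 kb from GDNF (chromosome 5, 37812677 to 37840041), depending on the library. For GFRA1 (chromosome 10, 116056925 to 116274705) that distance was 138.1 to 408.6 kb, and for GFRA4 (chromosome 20, 3659248 to 3663399) it was 5.44 to 42.8 kb. Peak lists hold only what passed the authors' threshold, so these zeros say that no peak was listed and not that no hybrid was present.

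GFRA3, the artemin co-receptor, lies on the minus strand of chromosome 5 from 138252380 to 138274621 and shares its window with the pseudogene RPS27AP18. Peaks covered 9.78, 13.95 and 12.71 kb of its 24.2 kb window in shTDP43 1, 2 and 3. They covered 6.19, 4.34 and 2.13 kb in shNC 1, 2 and 3. The lowest shTDP43 library stood above the highest shNC library, so the groups did not overlap. Of the 12808 genes tested, 0.796% were higher in every shTDP43 library than in every shNC library in unscaled covered length and 14.0% were lower in every one. The means were 12.1 ± 2.14 kb in shTDP43 and 4.22 ± 2.03 kb in shNC (SD, n = 3 each). On the scale used for the fit, log2 of the covered length scaled to the library total plus 100 bp, shTDP43 over shNC was 1.81 ± 0.30 (SE), a 3.50-fold difference. The number of peaks was 6, 5 and 6 in shTDP43 and 4, 7 and 5 in shNC, and the widest peak was 4.65, 5.61 and 6.28 kb in shTDP43 and 4.59, 0.826 and 0.794 kb in shNC.

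**Figure D2:**
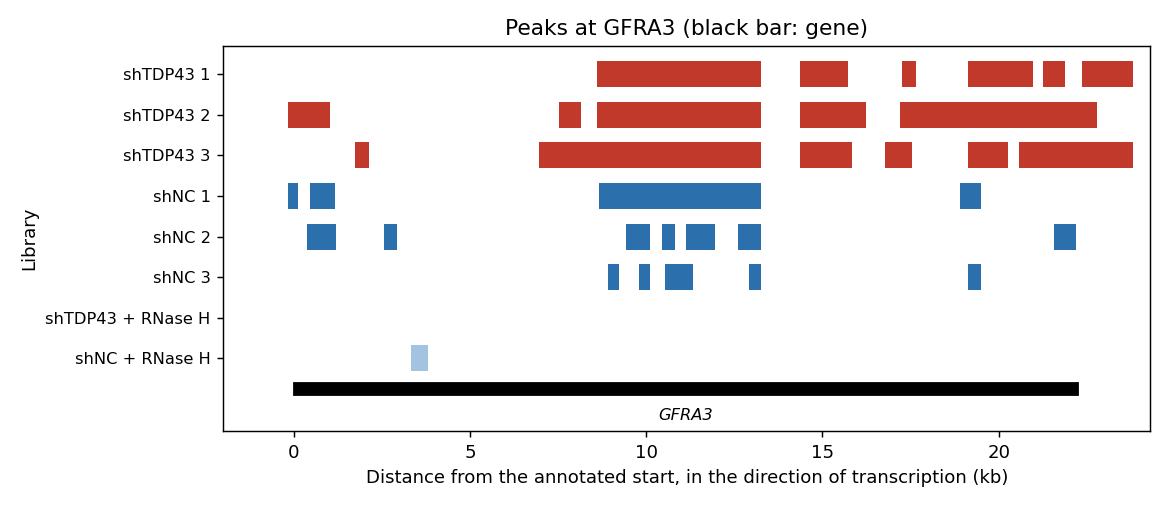
Horizontal bars are the deposited peaks of each library along GFRA3, by distance in kb from its annotated start in the direction of transcription, with shTDP43 libraries above shNC libraries and RNase H libraries at the bottom. In the 3′ stretch of 7.41 kb the 3 shTDP43 libraries have 3.79 to 6.46 kb under peaks, while each shNC library has 1 short peak there.

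The difference lay toward the 3′ end of GFRA3. When the gene was split into 3 equal stretches of 7.41 kb, the 3′ stretch had 3.79, 6.46 and 4.57 kb under peaks in the shTDP43 libraries and 0.585, 0.630 and 0.372 kb in the shNC libraries, with means of 4.94 ± 1.37 kb in shTDP43 and 0.529 ± 0.138 kb in shNC (SD, n = 3 each). The middle stretch averaged 5.72 ± 0.591 kb in shTDP43 and 2.96 ± 1.47 kb in shNC. The 5′ stretch averaged 0.618 ± 0.543 kb in shTDP43 and 0.677 ± 0.611 kb in shNC, and its library values overlapped. Coverage went on past the gene: in the 5 kb after its end, the shTDP43 libraries had 1.43, 0.971 and 1.57 kb and the shNC libraries 0.414, 0 and 0 kb. Base by base, 3.61 kb of the window lay under peaks of all 3 shTDP43 libraries and of no shNC library, and 0 kb showed the opposite. All 6 untreated libraries shared 1.09 kb, and 7.49 kb was under no untreated peak.

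Peaks at GFRA3 were of modest strength. Each peak's fold over local background is the authors' value. It is used here to rank peaks within a list and, with −log10 p, to solve the pileup at a summit. The strongest GFRA3 peak was within the top 19.7%, 18.4% and 14.5% of its list in shTDP43 1, 2 and 3, and within the top 55.6%, 42.4% and 43.2% in shNC 1, 2 and 3. Its summit pileup, solved in this way, was 14, 20 and 26 fragments in shTDP43 and 11, 14 and 15 in shNC. These values are not corrected for depth, and the background pileup ran from 1.05 to 2.01 over the untreated libraries. With peaks of −log10 q of at least 5, GFRA3 kept 6.90, 10.3 and 11.6 kb in shTDP43 and 0, 0.630 and 0.317 kb in shNC. At 10 or more it kept 0.866, 5.61 and 11.6 kb in shTDP43 and 0 kb in each shNC library. The order of the groups was the same at all 3 thresholds. The stricter sets are parts of the same peak lists by which GFRA3 was selected, so this order is no separate support.

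The start of GFRA3 carried little coverage in either genotype. The window of 300 bases at the start met a peak in shTDP43 2 and in shNC 1. Both of these peaks ended at position 138274790, inside a recognition sequence of SspI, one of the 5 restriction enzymes used to cut the nucleic acids. The 30 bases around it, at chr5:138274776-138274805 on the minus strand, are shown because the enzyme site and the peak edge coincide, with AATATT in capitals.
GFRA3 SspI motif: ttttcttggagaAATATTtggttctcctag
The motifs searched were TGTACA (BsrGI), GAATTC (EcoRI), AAGCTT (HindIII), AATATT (SspI) and TCTAGA (XbaI). Each reads the same on both strands, and none contains another. AATATT was in 4.51% of the 15811 start windows and any of the 5 motifs in 17.8%. Of 1174 motifs in windows with a peak, 861 (73.3%) had an untreated peak edge within 5 bp, and of 7749 peak edges in these windows 3307 (42.7%) lay within 5 bp of a motif, although bases that near a motif made up 0.781% of the windows. The only other motif in a member's start window was TCTAGA, 8 bases before the start of GDNF, where there was no peak.

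Peak edges recur to the base between libraries at the members too. At GFRA3, 18 of 66 untreated peak edges (27.3%) were shared exactly with another untreated library, against 33.3% of the 820974 edges genome-wide. One GFRA3 edge, at 138261374 and 13.2 kb from the start, was shared by all 6 libraries. At ARTN the peak ran from 43929272 to 43937910 in 4 of 6 libraries. At GFRA2, 29 of 134 edges were shared, at RET 14 of 56, at NRTN 15 of 54, at ARTN 8 of 12 and at PSPN 9 of 12. Whether those edges are enzyme sites was not tested outside the start windows.

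GFRA2, the neurturin co-receptor, moved the opposite way. It lies on chromosome 8 from 21690398 to 21812345 and shares its window with the pseudogene OR6R2P. Peaks covered 6.39, 7.94 and 8.94 kb of its 123.9 kb window in shTDP43 1, 2 and 3, against 22.3, 17.1 and 20.6 kb in shNC 1, 2 and 3. Every shTDP43 library was below every shNC library, an order that 14.0% of tested genes showed in unscaled covered length. The means were 7.75 ± 1.28 kb in shTDP43 and 20.0 ± 2.64 kb in shNC (SD, n = 3 each), a log2 change of -1.17 ± 0.12 (SE, 95% interval -1.43 to -0.90), which is 2.25-fold lower in shTDP43. GFRA2 fell with an adjusted p of 0.00555 (limma, Benjamini-Hochberg over 12808 genes) and ranked 17 of those genes by p. Across all genes tested, 0.921% were called in either direction, 0.75% (96) with less and 0.172% (22) with more coverage in shTDP43. Without scaling these counts were 19 with less and 1 with more.

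**Figure D3:**
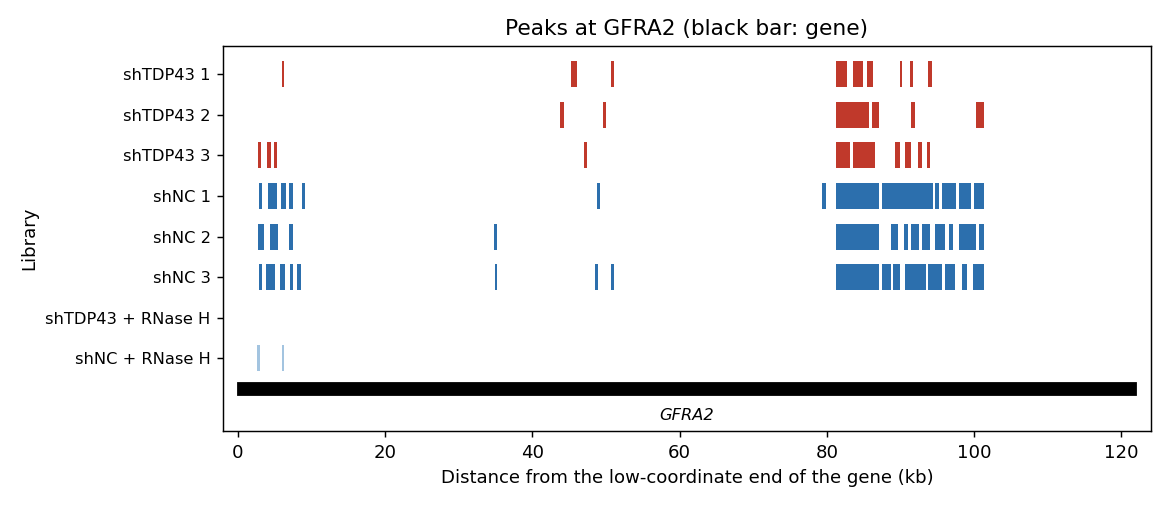
Horizontal bars are the deposited peaks of each library along GFRA2, by distance in kb from the gene's low-coordinate end, with shTDP43 libraries above shNC libraries and RNase H libraries at the bottom. The cluster of peaks from 81.3 kb to 101.4 kb is filled more completely in the 3 shNC libraries than in the 3 shTDP43 libraries.

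Most of the GFRA2 coverage lay in 1 cluster. In the 61.9 kb at the high-coordinate side the shTDP43 libraries had 4.90, 7.03 and 7.37 kb under peaks and the shNC libraries 18.7, 14.4 and 16.3 kb. The other 60 kb had 1.48, 0.904 and 1.57 kb in shTDP43 and 3.60, 2.74 and 4.26 kb in shNC. The groups were thus apart on both sides, but the share of genes with such an order was not computed for parts of a gene. All 6 libraries had a peak that began at exactly 21771686. Peaks of all 3 shNC libraries and no shTDP43 library covered 4.04 kb, the reverse covered 0 kb, and all 6 shared 3.34 kb. These are weak peaks in wide stretches: the strongest one was within the top 30.2%, 39.9% and 26.6% of its list in shTDP43 and within the top 24.4%, 20.8% and 16.1% in shNC.

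The GFRA2 call did not hold in every fit. It ended without scaling to the library total (log2 -1.36, adjusted p = 0.132), with peaks of −log10 q of at least 5 only (-2.24, adjusted p = 0.329) and without shNC 1 (-1.13, adjusted p = 0.0529), all in limma with the direction kept. With −log10 q of at least 5, GFRA2 had 0.686, 6.10 and 5.73 kb in shTDP43 and 19.3, 14.5 and 16.6 kb in shNC, and at 10 or more it had 0 kb in each shTDP43 library and 15.7, 3.54 and 5.81 kb in shNC.

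Genes around the co-receptors were not called. Over all genes tested, 11.5% had an unadjusted p under 0.05 in limma. Within 100 kb of GFRA3 lie the coding genes BRD8, KIF20A, CDC23, CDC25C, FAM53C and KDM3B, whose log2 changes were -0.18 to 0.32 (limma, adjusted p from 0.431 to 0.939), with 1 of the 6 under an unadjusted p of 0.05. Within 500 kb of GFRA2, a wider distance taken after the values were seen, 13 of 16 coding genes could be tested and 0 were called by limma, with 3 under an unadjusted p of 0.05. The largest change there was in NPM2, which encodes a histone chaperone of oocytes, with 2.03, 2.19 and 1.82 kb in shTDP43 and 0.547, 0.487 and 0.402 kb in shNC (log2 2.06, adjusted p = 0.0593). Its neighbour FGF17, a fibroblast growth factor, had 6.14, 8.74 and 8.58 kb in shTDP43 and 4.90, 2.26 and 1.13 kb in shNC (log2 1.88, adjusted p = 0.0882). Both values were above 0 while that of GFRA2 was below it.

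FGF17 was also the gene whose pattern over the 6 untreated libraries was most like that of GFRA3, among 12807 other tested genes. Likeness was the Euclidean distance between centred log2 scaled profiles, which was 0.472 for FGF17. Next came DBNDD1 (0.902), NPM2 (0.933), EXOC2 (0.944) and CPA1 (1.08). For RET, whose profile was nearly flat, the nearest were CFAP69 (0.0295), SLC39A13 (0.0336) and VIM (0.0373). These distances describe 6 libraries that differ in depth and are not a test.

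RET, the signalling receptor, lies on the plus strand of chromosome 10 from 43077069 to 43130351 and was under peaks almost from end to end. Of its 55.3 kb window 47.8, 51.2 and 51.4 kb was covered in shTDP43 1, 2 and 3 and 54.2, 53.0 and 54.0 kb in shNC 1, 2 and 3. The shTDP43 libraries were all below the shNC libraries, by a small share of the length, an order that 14.0% of tested genes showed. The means were 50.1 ± 2.03 kb in shTDP43 and 53.8 ± 0.626 kb in shNC (SD, n = 3 each). After scaling to the library total the log2 change was 0.09 ± 0.11 (SE, 95% interval -0.17 to 0.35, limma adjusted p = 0.688), and without scaling it was -0.10. RET was thus not called, and its sign depends on the scaling and on shTDP43 1, without which it was -0.039. A window this full cannot gain much more length, so covered length says little about increases at RET.

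**Figure D4:**
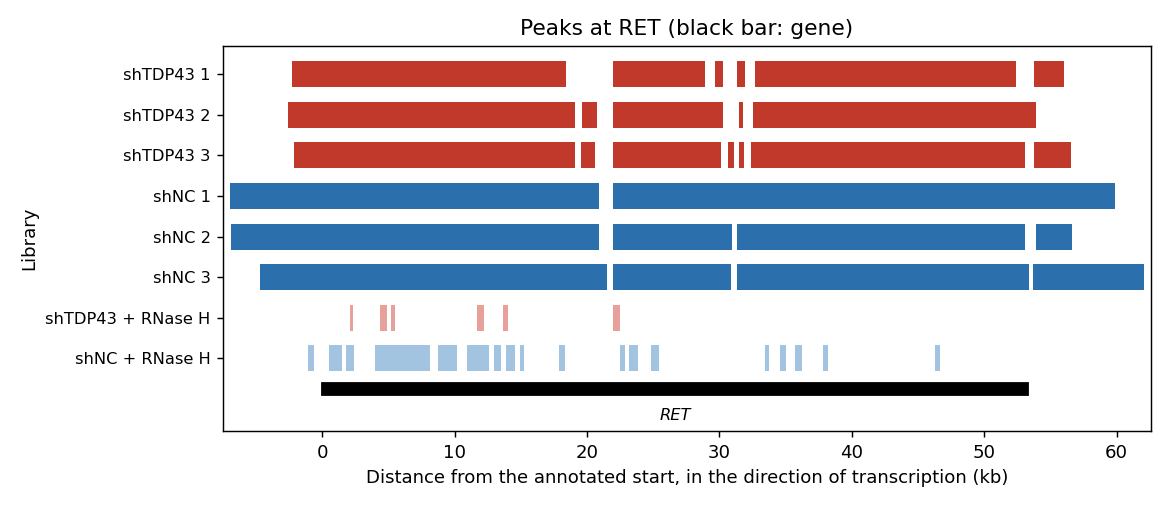
Horizontal bars are the deposited peaks of each library along RET, by distance in kb from its annotated start in the direction of transcription, with shTDP43 libraries above shNC libraries and RNase H libraries at the bottom. Untreated peaks span nearly the whole gene in both genotypes and reach further before the start in shNC than in shTDP43, and the RNase H libraries keep short peaks, 6 in shTDP43 and 18 in shNC.

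The RET domain began closer to the gene's start in shTDP43 than in shNC. In the 20 kb before the start, a stretch chosen after the peaks had been seen, the shTDP43 libraries had 2.32, 2.58 and 2.14 kb under peaks and the shNC libraries 7.35, 8.17 and 6.22 kb. The means were 2.35 ± 0.220 kb in shTDP43 and 7.25 ± 0.981 kb in shNC (SD, n = 3 each), with no overlap between groups. Within the gene itself 46.3, 49.6 and 49.9 kb was covered in shTDP43 and 52.2, 51.7 and 52.3 kb in shNC, also without overlap. Over whole windows 14.0% of tested genes had every shTDP43 library below every shNC library, and no such share was computed for stretches before a start. In the 20 kb past the end the values were 5.53, 7.38 and 6.99 kb in shTDP43 and 8.44, 7.23 and 8.41 kb in shNC, and these overlapped. That stretch includes part of the coding gene CSGALNACT2, which spans 43138445 to 43185308. CSGALNACT2 was not called (log2 -0.82, limma unadjusted p = 0.0327, adjusted p = 0.368). All 6 libraries shared 46.8 kb of the RET window. The untreated RET domain was formed by 6, 5 and 7 peaks in shTDP43 and by 2, 4 and 4 in shNC, so it was more often interrupted in shTDP43. Its strongest peak spanned the start in every untreated library. That peak was within the top 0.703%, 0.584% and 0.666% of its list in shTDP43 1, 2 and 3 and within the top 0.0941%, 0.112% and 0.123% in shNC 1, 2 and 3.

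Of the ligands, NRTN lies on chromosome 19 from 5805067 to 5828324. It had 12.8, 16.2 and 18.5 kb under peaks in shTDP43 and 17.4, 17.2 and 16.1 kb in shNC. The groups overlapped, and the log2 change was 0.09 ± 0.09 (SE, 95% interval -0.12 to 0.29, limma adjusted p = 0.656). The strongest NRTN peak reached past the gene's 3′ end in all 6 untreated libraries. ARTN, the ligand of GFRA3, lies on chromosome 1 from 43933801 to 43937240 and shares its window with LINC02918. It had 4.22, 5.25 and 5.11 kb in shTDP43 and 5.11 kb in each shNC library, with a log2 change of 0.11 ± 0.14 (SE, 95% interval -0.21 to 0.43, limma adjusted p = 0.689). No change was thus called at this ligand of GFRA3. The ARTN window was 93.9% covered in each shNC library, so its covered length could rise little, and without scaling its log2 change was -0.077. The changes at GFRA3 and ARTN were not tested against each other. PSPN, on chromosome 19 from 6375148 to 6375933, was covered over its whole 2.79 kb window in all 6 libraries, so its log2 change of 0.19 ± 0.21 (SE, 95% interval -0.29 to 0.67, limma adjusted p = 0.666) comes from scaling alone and is 0 without it. A single peak of 15.2 to 24.1 kb covered PSPN together with ALKBH7, the coding gene whose window overlaps its own, so the hybrids cannot be assigned to PSPN.

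**Figure D5:**
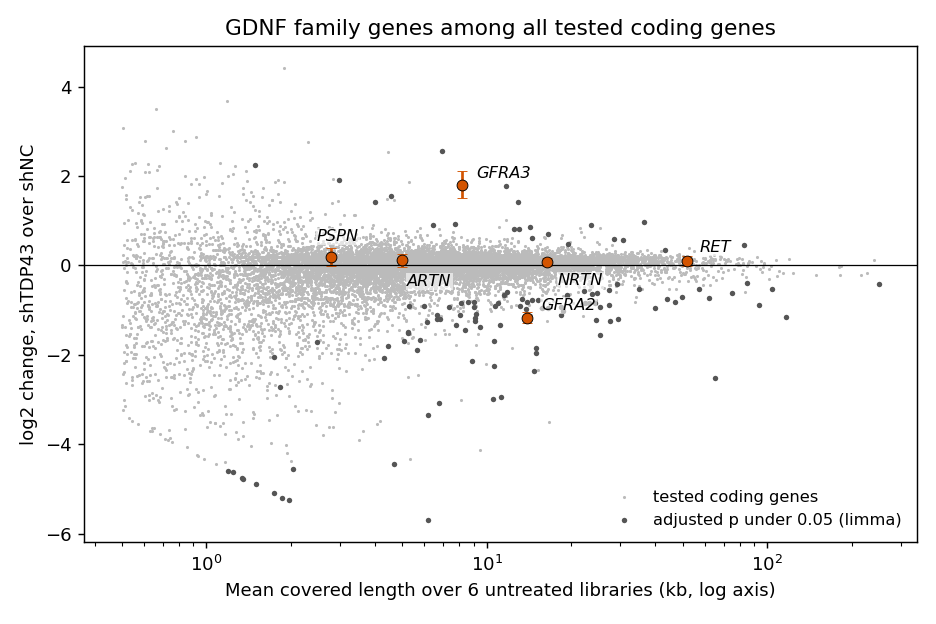
Each point is 1 of 12808 tested coding genes, with the mean covered length over 6 untreated libraries (kb, log axis) across and the log2 change of shTDP43 over shNC upward; dark points passed an adjusted p of 0.05 in limma, and family members are orange with their standard errors. GFRA3 is at 1.81, in the contrast by which it was selected, and GFRA2 at -1.17, while RET, NRTN, ARTN and PSPN lie between 0.09 and 0.19.

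Among the 6 members that passed the filter of 500 bp mean coverage, the median log2 change was 0.10, against 0.05 over all genes tested. Leaving aside GFRA3, whose values are no test, GFRA2 was the only member called, where 0.921% of all genes tested were called. The members were brought together with GFRA3 already known to differ, so nothing is read from their share.

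Coverage was lower after RNase H at each member that had any. The treated libraries were also shallower by background pileup, at 0.991 in shTDP43 and 0.936 in shNC. The untreated libraries ran from 1.05 to 2.01. With 1 treated library per genotype, depth and treatment cannot be told apart, and the part of depth was not tested. After treatment RET kept 2.56 kb in shTDP43, against 47.8 to 51.4 kb untreated, and 14.6 kb in shNC, against 53.0 to 54.2 kb untreated. GFRA2, GFRA3 and PSPN had no peak left in treated shTDP43 and 0.655, 0.498 and 0.423 kb in treated shNC, in that order. NRTN and ARTN had none in either treated library. The fit of RNase H against untreated over all 8 libraries, with genotype as a covariate and no scaling, called all 6 tested members with less coverage, where 94.4% of 12706 genes were so called (11992 with less and 85 with more, or 9234 with less and 1500 with more after scaling). The median log2 change was -5.16 for the members and -5.07 for all genes, so the members went with the rest of the genome.

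Of the members, RET kept the most coverage after RNase H, and the differences between members were not tested. Its log2 change under RNase H was -3.06 ± 0.49 (SE, limma adjusted p = 0.00105), against -5.07 for the median gene. It was -1.87 without the treated shTDP43 library, -4.24 without the treated shNC library, and -5.81 and -6.20 with peaks of −log10 q of at least 5 and 10. It was 0.91 when each library was scaled to its own total (adjusted p = 0.0526), a value above 0 that did not pass the threshold. All 6 treated RET peaks in shTDP43 and all 18 in shNC overlapped an untreated peak. The strongest treated RET peak stood within the top 38.7% of the list in treated shTDP43 and the top 6.36% in treated shNC, where it covered 4.16 kb from 4.00 to 8.15 kb past the start. The treated shNC list covered 10.5 Mb in all, against 5.66 Mb in the treated shTDP43 list, and with 1 treated library per genotype the difference at RET was not tested. The single treated peak at GFRA3, 3.32 to 3.82 kb from the start in shNC, overlapped no untreated peak, while the 2 treated peaks at GFRA2 and the 1 at PSPN did overlap one.

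The wider pathway was not called between genotypes. Over all 12808 genes, 11.5% had an unadjusted p under 0.05. In limma, of 8 genes of the alternative RET ligand arm and co-receptors 7 were tested and 0 called, with 3 at an unadjusted p under 0.05 and a median log2 change of -0.20. Of 39 RET adaptors and effectors 32 were tested and 0 called, with 5 at an unadjusted p under 0.05 and a median of 0.01. Of 17 transcription factors known to act on RET or GFRA genes 13 were tested and 0 called, with 1 at an unadjusted p under 0.05. All 17 feedback and early response genes were tested and 0 called, with 3 at an unadjusted p under 0.05. The medians of these lists were 0.16 each, against 0.05 over all genes.

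In the ligand arm, NCAM1, an adhesion molecule that can serve as a GDNF receptor with GFRA1, had 13.6, 29.1 and 30.9 kb under peaks in shTDP43 and 49.4, 36.3 and 44.8 kb in shNC (log2 -0.71 ± 0.18 SE, limma adjusted p = 0.149). GDF15, the stress-induced ligand of GFRAL, had 0.349, 3.40 and 1.92 kb in shTDP43 and 4.90 kb in each shNC library (-1.60 ± 0.56, limma adjusted p = 0.311). GFRAL itself had no peak. Neither gene passed the threshold, and both were named for having the smallest p of their list.

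Among the adaptors and effectors, GAB2, a docking protein downstream of RET, had 36.3, 44.6 and 46.8 kb in shTDP43 and 64.7, 59.2 and 61.8 kb in shNC (-0.35 ± 0.07, limma adjusted p = 0.0805). STAT3, a transcription factor activated by receptor kinases, had 4.42, 7.81 and 8.97 kb in shTDP43 and 12.5, 10.3 and 12.2 kb in shNC (-0.58 ± 0.15, limma adjusted p = 0.165). Neither of these was called, and they were named by the same rule. Of the feedback and early response genes, DUSP5, a phosphatase that switches off ERK, had the opposite order. It had 13.2, 14.8 and 14.3 kb in shTDP43 and 10.7, 10.0 and 10.8 kb in shNC (0.61 ± 0.13, limma adjusted p = 0.0848).

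SPRY4, a feedback inhibitor of receptor tyrosine kinases, had 4.53, 6.25 and 5.92 kb in shTDP43 and 9.23, 8.58 and 8.56 kb in shNC (-0.47 ± 0.11, limma adjusted p = 0.123). RARB, a retinoic acid receptor, averaged 1.63 ± 0.468 kb in shTDP43 and 4.15 ± 1.77 kb in shNC (SD, n = 3 each; -1.06 ± 0.29, limma adjusted p = 0.184). ISL1, a homeobox factor of sympathetic neurons, averaged 12.3 ± 0.436 kb in shTDP43 and 11.7 ± 0.768 kb in shNC (0.27 ± 0.14, limma adjusted p = 0.518). In limma, the RNase H fit called less coverage in 6 of 7 tested genes of the ligand arm and 32 of 32 adaptors and effectors. It called 12 of 13 transcription factors and 17 of 17 feedback genes with less coverage, against 94.4% of all genes tested.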

How the data were processed

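DRIP-seq peak lists of 8 immunoprecipitated SH-SY5Y libraries were used; 1 input library was not analysed here. Per the submitters' processing notes, Bowtie2 2.4.4, SAMtools, MACS2 2.2.6 and hg38 were used; settings and the control for peak calling are not given in the sources used here. The deposited lists were called per library and give each peak the authors' score (a whole number made from q), a fold ratio over background, −log10 p and −log10 q values, and a summit offset. Peaks were used as deposited, and folds and q only within a list. No read counts were used.

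Covered length per gene was the length of its RefSeq GRCh38.p14 span plus 1 kb each side that lay under peaks, on chromosomes 1 to 22 and X, with no strand of the hybrids. All 9 members matched by symbol, 8 of them in the RefSeq promoter table. Values entering the genotype comparison were divided by each library's total relative to the median one, and log2 was taken after adding 100 bp. Limma 3.58.1 in R 4.3.3 then tested 12808 coding genes averaging 500 bp or more (eBayes with trend, Benjamini-Hochberg over all genes, called under 0.05). The RNase H fit used all 8 libraries, a genotype term and no scaling. Log2 changes understate those of little-covered genes. Interval sums were checked in 500 windows, of which 0 differed, with Python 3.11.15.

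The members, pathway lists and tests were chosen with earlier results of these data known. All members were to be named, with the 2 genes of smallest p per list and any called, the 5 profiles nearest to GFRA3 and the 3 nearest to RET, and every gene sharing a member's window (for members without peaks: SNORD158 and LOC107984273 at GFRA1, and GDNF-AS1 at GDNF). Under the same rule the marker lists gave DDC (log2 0.38, adjusted p = 0.104) and ISL1 among adrenergic genes, and FN1 (-2.38, 0.488) and NOTCH2 (-2.21, 0.541) among mesenchymal genes, in limma.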

Additional observations from a re-analysis of the deposited data

How the results depend on the processing

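For shTDP43 against shNC, 22 genes had more and 96 less coverage. The counts with more and less coverage were 1 and 19 without scaling, 36 and 160 with a 500 bp pseudocount, 3 and 30 with −log10 q of at least 5, 2 and 30 with at least 10, 1070 and 669 without peaks also called after RNase H, and 14 and 61 without the variance trend. Equal peak numbers per list, chosen after seeing the data, gave 44 with more coverage. Leaving out 1 library at a time gave 6 to 57 with more and 12 to 166 with less. Under RNase H, 85 genes had more coverage, and 1500 with scaling, 47 with a 20 bp pseudocount, 29 with −log10 q of at least 10, 6 with a mean of at least 2000 bp and 20 to 111 leaving out 1 library; the 11992 with less stayed within 1.5 times throughout. Without scaling, the median of all genes in the genotype comparison was -0.15 instead of 0.05.

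The log2 change of GFRA3 stayed positive, at 1.43 to 2.09 leaving out 1 library and 1.61 to 5.52 otherwise. All these fits reuse the libraries by which GFRA3 was picked. In 12 of 18 alternatives it would not have passed the threshold by which it was once picked. GFRA2 did not pass in 3 of 18, given above. Signs turned for values that were not called: RET was -0.10 without scaling and -0.039 without shTDP43 1 (-0.039 to 0.17 leaving out 1 library at a time), NRTN was -0.11 without scaling, -0.27 with −log10 q of at least 10 and -0.077 without peaks also called after RNase H, and ARTN was -0.077 without scaling and -0.047 without those peaks. RET became 6.20 (limma adjusted p = 0.00187) without those peaks. In that setting an untreated peak is dropped whole if it meets any treated peak of its own genotype. RET had 18 treated peaks in shNC, the last ending 46.6 kb past the start, and 6 in shTDP43, the last ending at 22.5 kb. The untreated shTDP43 peaks that began at 32.4 to 32.7 kb met no treated shTDP43 peak and were kept. The untreated shNC peaks over that stretch met treated shNC peaks and were dropped. No genotype difference is therefore read from the 6.20. RET under RNase H was 0.91 with scaling. In that comparison the calls of GFRA2 (at least 10), GFRA3 (scaling, at least 5, at least 10) and PSPN (scaling) also ended.

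With the replicate number as a block, 9 genes had more and 65 less coverage, and GFRA2 kept its call (adjusted p = 0.0155 in limma). The numbers did not pair the libraries: same-numbered libraries' deviations correlated at -0.17, 0.06 and -0.17 for replicates 1, 2 and 3, and shTDP43 1 correlated best with shNC 3. No paired analysis was possible for RNase H because the treated libraries carry no replicate number. The background pileup ran from 1.05 to 2.01 over the untreated libraries, so weak peaks of the members can be missed in the shallowest, shTDP43 1.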
